A study of Mus musculus with 6 samples.

Results

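Hepatocytes, the main cells of the liver, make most of the proteins of blood plasma and carry a set of enzymes that few other cells have. In these forebrain libraries, 34 genes of this kind were examined, 25 coding for secreted plasma proteins and 9 for intracellular liver proteins, of 23282 entries in the count tables and of 18936 with a count in any library. The members were chosen by name after earlier results from the same counts were known, in which liver transcripts such as Alb and Ahsg had stood out as higher in the NCD libraries and highest in NCD replicate 2. Their values are therefore given as a description with no test.

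The study compared C57BL/6J male mice of 8 to 10 weeks, genotype WT, that were kept for 10 days on a normal chow diet (NCD) or a high-fat diet (HFD) in which fat gave most of the calories. RNA came from forebrain hemispheres from which the olfactory bulbs and the cerebellum had been taken off. Each diet had 3 libraries, made with a kit that copies the 3′ end of each polyadenylated transcript, so that counts were not scaled by transcript length. The labels do not say whether the 3 replicates of a diet were 3 animals.

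The total count was between 6842785 and 9689372 per library, and the ribosomal precursor Rn45s took 5.55% to 8.75% of it. Replicates of a diet differed beyond sampling noise, since chi-square statistics of their counts came to 3.58 to 17.1 times the degrees of freedom. NCD replicate 3 stood apart from its diet, at 9.74 against NCD replicate 1 and 13.4 against NCD replicate 2. NCD replicates 1 and 2 gave 3.58 against each other. HFD replicate 3 stood apart too, at up to 17.1, where HFD replicates 1 and 2 gave 3.96 against each other. HFD replicate 3 also had 7943 counts of the pituitary hormone Gh against 12 to 71 in the other libraries. Levels are given as counts and as CPM, counts scaled to a common library total after TMM normalization. A fold change is on the log2 scale as HFD minus NCD with its standard error (SE), from edgeR's quasi-likelihood fit over all genes with a count. A gene is called where that fit gave at least 1.5-fold and an unadjusted p under 0.05. A count of 3, which is 0.310 to 0.438 CPM of the library totals, was taken as the floor, and intervals and floors cover counting error only.

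Plasma proteins leave the hepatocyte through the secretory pathway and circulate as carriers of hormones, lipids and haem, as clotting factors, and as inhibitors of proteases. The urea cycle, amino acid breakdown and drug oxidation take place inside the cell, with enzymes that are not secreted. Transcription of these genes is under the control of liver-enriched factors such as HNF4, forkhead and C/EBP proteins. The brain makes some plasma proteins of its own, such as transthyretin in the choroid plexus and apolipoprotein E in astrocytes.

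Promoter sequence was not used in the choice of members, and the share of promoters with known motifs was compared with that of all genes. A promoter window of 250 bases before to 50 after the start of the gene was found in RefSeq (GRCm38.p6) for 26 of the 34 members and not for 8. The motifs were picked from textbook knowledge after the values were seen, and both strands were searched. Members and liver motifs were both picked as known from liver, so an excess of these motifs could be foreseen and is not a test. GTTAAT, letters known from liver promoters, was in 9 of the 26 windows (34.6%) and in 8.24% of the windows of 27025 genes. The letters TGTTTNC, read by forkhead factors, were in 16 of 26 (61.5%) against 22.8% of all genes, and TATAAA was in 7 (26.9%) against 15.7%. TTGCAAT, a C/EBP core, was in 0 of 26 against 2.55% of all genes. No matches of different motifs overlapped in the members, and the 3 Serpina1 windows are copies of one another in part. A match is a run of letters, and its use in the animals was not measured. The 150 bases before the start that RefSeq gives are printed for 2 carriers, a fibrinogen chain and a protease inhibitor that hold GTTAAT or its reverse complement ATTAAC there, in capitals. They lie at chr5:90460720-90460869 on the plus strand for Alb, at chr5:89457899-89458048 on the minus strand for Gc, at chr3:83049864-83050013 on the minus strand for Fgb and at chr12:103738190-103738339 on the minus strand for Serpina1b, and each reads toward its gene.
Alb: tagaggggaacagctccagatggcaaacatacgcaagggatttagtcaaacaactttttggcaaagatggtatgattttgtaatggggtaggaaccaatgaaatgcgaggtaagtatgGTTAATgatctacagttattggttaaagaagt
Gc: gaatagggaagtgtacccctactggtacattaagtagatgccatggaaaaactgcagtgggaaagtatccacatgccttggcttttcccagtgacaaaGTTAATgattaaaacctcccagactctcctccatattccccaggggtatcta
Fgb: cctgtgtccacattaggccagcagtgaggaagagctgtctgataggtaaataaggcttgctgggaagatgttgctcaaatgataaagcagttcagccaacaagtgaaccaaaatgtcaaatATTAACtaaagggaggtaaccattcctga
Serpina1b: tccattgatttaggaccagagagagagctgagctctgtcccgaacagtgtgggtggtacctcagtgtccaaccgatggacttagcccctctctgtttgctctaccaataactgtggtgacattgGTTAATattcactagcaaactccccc
The match began 32 bases before the RefSeq start in Alb, 52 in Gc, 29 in Fgb and 26 in Serpina1b. The GENCODE gene starts, from which the gene positions in this text are taken, differ from the RefSeq starts for Alb and Serpina1b.

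All 34 members had a count, but at a low level. Of these, 28 reached 20 counts over the 6 libraries and 11 passed the filter on low counts. Summed over the members, the level was 87.3, 139 and 34.4 CPM in the NCD libraries and 31.8, 41.8 and 31.9 CPM in the HFD libraries, in the order of their replicate numbers, which holds for all values below. The mean was 86.9 ± 52.2 CPM on NCD and 35.1 ± 5.75 CPM on HFD (SD, n = 3 per diet), a ratio of 2.47. NCD replicates 1 and 2 stood above the other 4 libraries, whereas NCD replicate 3 lay within the range of the HFD libraries, so that the diets overlapped. In bulk tissue, fewer cells of a type and less RNA per cell cannot be told apart.

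**Figure D1:**
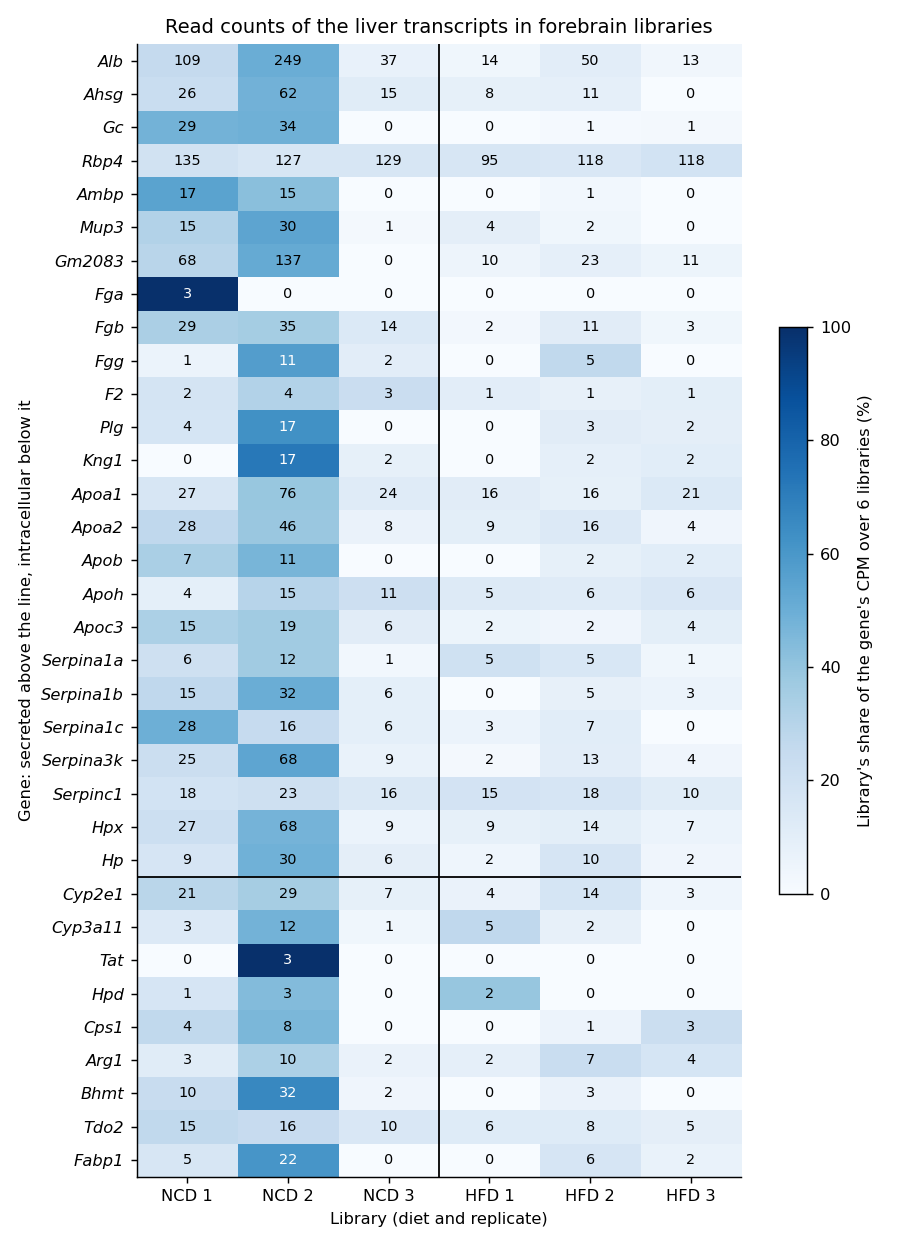
Read counts of the 34 genes (rows) in the 6 libraries (columns), with the secreted proteins above the horizontal line and the intracellular proteins below it, and with shading for the share of the CPM of the gene that a library held. The dark cells lie in NCD replicates 1 and 2, and NCD replicate 3 had no count of 10 members.

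The counts of single genes gave the same picture. NCD replicate 2 held the highest level of 29 members and NCD replicate 1 that of 5. Both libraries were above the other 4 for 23 of the 34 members, 19 of the 25 secreted and 4 of the 9 intracellular, where 6.04% of all genes had this order. The HFD libraries were all below the NCD libraries for 6 members (Ahsg, Fgb, F2, Apoc3, Serpina1b and Tdo2), where 4.14% of all genes had this order. In the fit, 17 of 34 members were called lower on HFD and 0 higher by edgeR, against 1.29% of all genes called lower and 0.813% called higher. DESeq2 called 14 lower and 0 higher, and did not call Gm2083, Hp and Cyp2e1. Among the members past the filter, 9 of 11 were called lower, against 0.748% of the genes past it. As the members were chosen on this contrast, nothing is read from these shares. Over the 34 members, the median log2 fold change came to -1.71, against -0.004 over all genes. The median of the members was -1.53 with Fga and Tat set to 0, as both had 3 counts on NCD, the floor, and none on HFD.

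Of single libraries, NCD replicate 2 changed the number called most. With NCD replicate 1 left out, 16 members were called lower, and the median log2 fold change was -1.71. Without NCD replicate 2, 7 members were called lower, and the median log2 fold change was -0.82. Without NCD replicates 1 and 2, which was tried after the values were seen, 0 members were called lower and 1 higher, and the median was 0.09 over the 32 members that still had a count. The summed level in NCD replicate 3, the library that remains, was 34.4 CPM against a mean of 35.1 CPM on HFD.

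**Figure D2:**
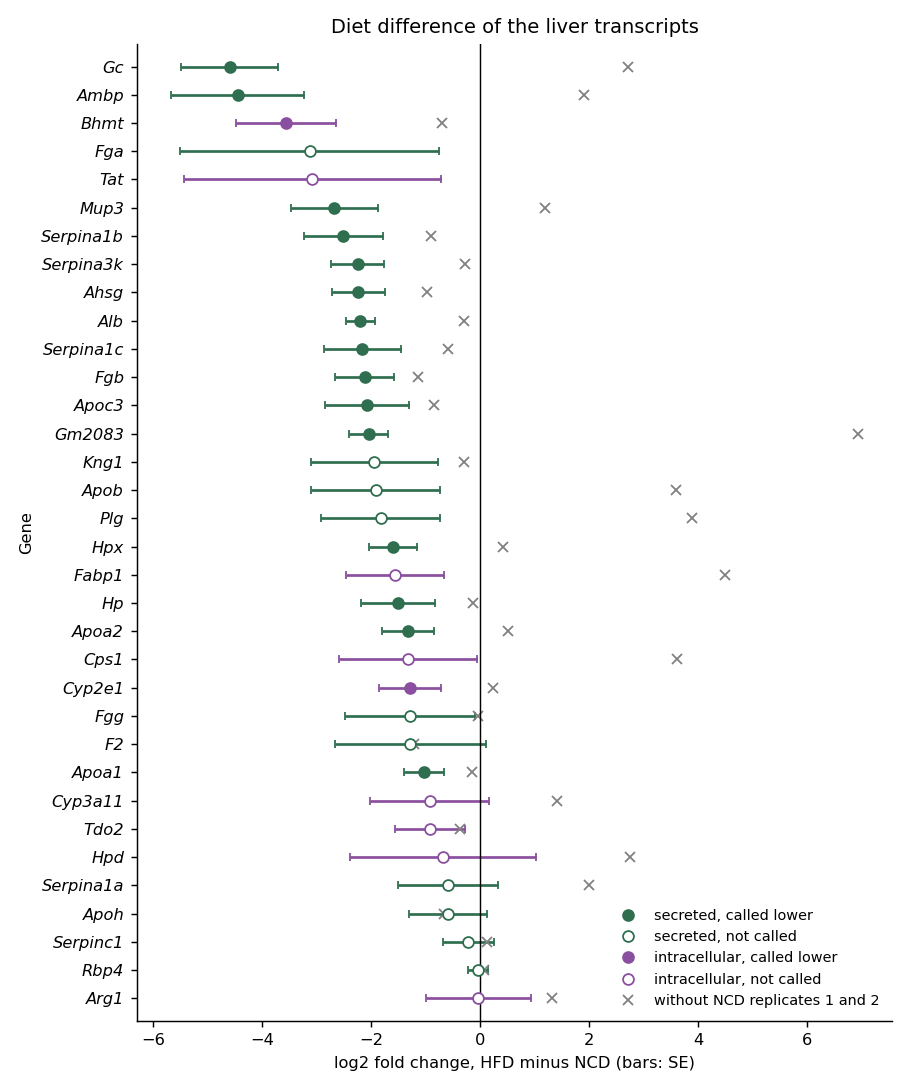
The log2 fold change of each gene, HFD minus NCD, with its SE as a bar, with filled points for genes called lower and grey crosses for the value without NCD replicates 1 and 2. The points lie between -4.59 and -0.03, and the crosses, of which 17 of 32 are above 0, scatter on both sides of 0. Points or crosses of genes without a count on a diet, such as Fga and Tat, depend on the prior count of the fit.

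Carriers and transport proteins of plasma had the highest counts. Alb, which codes for albumin and lies at chr5:90460897-90476602 (GRCm38), had 109, 249 and 37 counts on NCD and 14, 50 and 13 on HFD. Its level was 14.7 ± 11.5 CPM on NCD and 3.08 ± 2.05 CPM on HFD (SD, n = 3), with a log2 fold change of -2.19 (SE 0.27). HFD replicate 2 was above NCD replicate 3, so the diets overlapped. Ahsg, for the mineral-binding glycoprotein fetuin-A, had 26, 62 and 15 counts on NCD and 8, 11 and 0 on HFD, with a log2 fold change of -2.23 (SE 0.48). Here the HFD libraries were all below the NCD libraries. Without NCD replicate 2 the log2 fold change was -1.42 for Alb and -1.55 for Ahsg, both still called, and that of Alb was -2.95 without HFD replicate 2. Without NCD replicates 1 and 2 neither was called, at -0.29 for Alb and -0.97 for Ahsg.

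Gc and Ambp were nearly confined to NCD replicates 1 and 2. Gc, which codes for the vitamin D-binding protein, had 29, 34 and 0 counts on NCD and 0, 1 and 1 on HFD. Its level was 27.4-fold higher on NCD with a 95% counting interval of 7.28 to 231. Ambp, the precursor of alpha-1-microglobulin and bikunin, had 17, 15 and 0 counts on NCD and 0, 1 and 0 on HFD, a ratio of 27.9 with a counting interval of 4.65 to 1134. As NCD replicate 3 had no count of either gene, the ratios rest on NCD replicates 1 and 2, and without them the log2 fold change was 2.72 for Gc and 1.91 for Ambp, fitted values that depend on the prior count where a diet is at 0. The fitted values were called but moved by over 1.5-fold without NCD replicate 3 for Gc (-5.18 from -4.59) and without NCD replicate 1 (-3.85) or HFD replicate 2 (-6.35) for Ambp (from -4.44).

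The major urinary proteins, small pheromone carriers that the male mouse liver secretes in bulk, were also highest in NCD replicates 1 and 2. Mup3 had 15, 30 and 1 counts on NCD and 4, 2 and 0 on HFD, and the log2 fold change was -2.67 (SE 0.80). Gm2083, whose symbol RefSeq lists as an older name of Mup13, had 68, 137 and 0 counts on NCD and 10, 23 and 11 on HFD, with a log2 fold change of -2.04 (SE 0.36). The HFD libraries thus lay between NCD replicate 3 and the other NCD libraries for Gm2083. Without NCD replicates 1 and 2 the log2 fold change was 1.19 for Mup3 and 6.93 for Gm2083, the latter again against a single NCD library at 0. Without NCD replicate 2 alone it was -1.82 for Mup3, which was no longer called, and -1.14 for Gm2083. Leaving out HFD replicate 1 gave -3.69 for Mup3, and leaving out NCD replicate 3 gave -2.63 for Gm2083. Gm2083 was not called by DESeq2, and quantile normalization with limma called neither. Members of the Mup family are close copies, with 16.0% of the 50-base stretches in the last 500 bases of Mup3 found in 21 other genes, and reads with several alignments were counted, so that 1 read may stand in several entries.

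Rbp4, for the retinol-binding protein of plasma, went against the group. It had 135, 127 and 129 counts on NCD and 95, 118 and 118 on HFD, with a log2 fold change of -0.04 (SE 0.19). Its level was 14.6 ± 1.73 CPM on NCD and 14.2 ± 1.74 CPM on HFD, so that the libraries with most Alb had no excess of it. Rbp4 is also transcribed outside the liver. Without it, the 33 other members summed to 70.7, 125 and 20.8 CPM in the NCD libraries and 18.1, 28.9 and 15.7 CPM in the HFD libraries. Leaving Rbp4 out, here and below, was chosen after the values were seen.

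**Figure D3:**
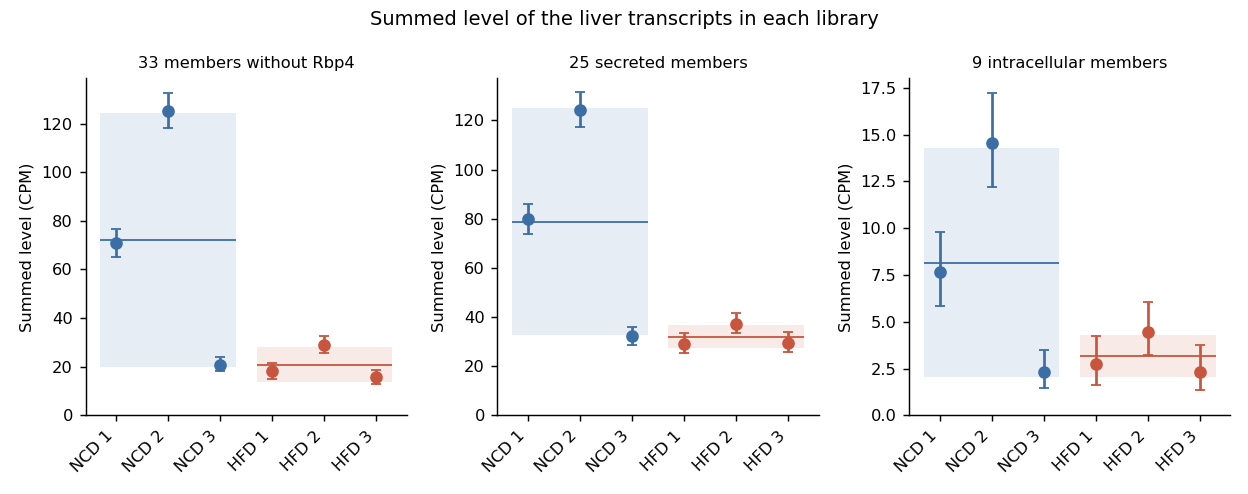
Summed level in CPM of the 33 genes without Rbp4, of the 25 secreted and of the 9 intracellular members in each library, with 95% Poisson intervals, and lines and bands for the mean and SD of each diet (n = 3). NCD replicates 1 and 2 are above the HFD libraries in each panel, and NCD replicate 3 is level with them.

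Fibrinogen and the clotting and fibrinolysis genes were low. Fibrin is built from the products of Fga, Fgb and Fgg, which are neighbours on chromosome 3. Fgb had 29, 35 and 14 counts on NCD and 2, 11 and 3 on HFD, with no overlap between the diets and a log2 fold change of -2.11 (SE 0.54), or -3.01 without HFD replicate 2. Fgg had 0 to 11 counts per library, and Fga had 3 counts in NCD replicate 1 and none elsewhere, which is at the floor. Fgb thus had more counts than its partner chains in every library, although the assembled protein holds them in equal number.

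Of the other clotting genes, Plg, for plasminogen, had 4, 17 and 0 counts on NCD and 0, 3 and 2 on HFD. Kng1, for kininogen, had 0, 17 and 2 counts on NCD and 0, 2 and 2 on HFD. Most of the counts of both genes were in NCD replicate 2. F2, for prothrombin, had 1 to 4 counts per library. None of the 3 was called.

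Of the 5 apolipoproteins, which carry lipids in plasma, 3 were called lower. Apoa1, the main protein of high-density lipoprotein, had 27, 76 and 24 counts on NCD and 16, 16 and 21 on HFD, with a log2 fold change of -1.03 (SE 0.36). Apoa2, its partner in the same particle, had 28, 46 and 8 counts on NCD and 9, 16 and 4 on HFD, with a log2 fold change of -1.32 (SE 0.47). Apoc3, an inhibitor of lipoprotein lipase, had 15, 19 and 6 counts on NCD and 2, 2 and 4 on HFD, with no overlap and a log2 fold change of -2.08 (SE 0.78). Apoc3 thus had the largest difference of the called genes of this class. Apob, the structural protein of low-density lipoprotein, had 7, 11 and 0 counts on NCD and 0, 2 and 2 on HFD. Apoh, which binds phospholipids, had 4, 15 and 11 counts on NCD and 5, 6 and 6 on HFD. Both of these overlapped between the diets and were not called. The 3 calls were lost without NCD replicate 2, with log2 fold changes of -0.35 for Apoa1, -0.79 for Apoa2 and -1.78 for Apoc3. Quantile normalization with limma called Apoc3 alone of the 3.

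Of the 5 protease inhibitors, 3 were called lower. Serpina1a, Serpina1b and Serpina1c code for alpha-1-antitrypsins, which inhibit neutrophil elastase, and are copies of one another on chromosome 12. Serpina1b had 15, 32 and 6 counts on NCD and 0, 5 and 3 on HFD, with no overlap and a log2 fold change of -2.51 (SE 0.72). Serpina1c had 28, 16 and 6 counts on NCD and 3, 7 and 0 on HFD, with a log2 fold change of -2.16 (SE 0.70). It was highest in NCD replicate 1, unlike Serpina1b. Serpina1a had 6, 12 and 1 counts on NCD and 5, 5 and 1 on HFD and was not called. Without NCD replicate 2 the log2 fold change of Serpina1b was -1.83, without NCD replicate 1 that of Serpina1c was -1.47, and neither was then called, whereas without HFD replicate 2 they were -3.14 and -3.09. Of the 50-base stretches in their last 500 bases, 55.4% in Serpina1a, 38.6% in Serpina1c and 29.5% in Serpina1b are also in other genes, so the division of the reads between them is uncertain.

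Serpina3k, for a serpin that binds kallikrein, had 25, 68 and 9 counts on NCD and 2, 13 and 4 on HFD, with a log2 fold change of -2.24 (SE 0.49). It was -1.33 and not called without NCD replicate 2, and -3.12 without HFD replicate 2. The gene overlaps Serpina3m on the same strand. Serpinc1, for antithrombin, had 18, 23 and 16 counts on NCD and 15, 18 and 10 on HFD, with a log2 fold change of -0.21 (SE 0.47). Beside Rbp4, this was the member with the most even counts among those past the filter. The exons of Serpinc1 overlap those of Zbtb37 on the other strand, and the use of strand in the counting is not given in the sources used here. Exons of Ahsg, Fgg, Plg, Apoh, Serpina1c and Bhmt also overlap those of another gene on the other strand, which is Prkca for Apoh.

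Both genes for the clearance of haem were called lower. Hpx, for hemopexin, had 27, 68 and 9 counts on NCD and 9, 14 and 7 on HFD, with a log2 fold change of -1.59 (SE 0.44). Hp, for haptoglobin, had 9, 30 and 6 counts on NCD and 2, 10 and 2 on HFD, with a log2 fold change of -1.50 (SE 0.68). NCD replicate 3 was within the HFD range for Hp and slightly below it for Hpx, and without NCD replicates 1 and 2 the log2 fold change was 0.42 for Hpx and -0.13 for Hp. Both calls were lost without NCD replicate 2 alone (-0.72 for Hpx and -0.58 for Hp) and under quantile normalization with limma. The call of Hp was also lost under DESeq2, without HFD replicate 1 (-1.21) and without HFD replicate 3 (-1.19), and its value was -2.50 without HFD replicate 2. The erythroid list, which holds the globins whose products haptoglobin binds, summed to 672 to 788 CPM on NCD and 814 to 1251 CPM on HFD, with Hbb-bt and Hbb-b2 called higher.

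Of the 9 intracellular members, 2 were called lower. Cyp2e1, a cytochrome P450 that oxidises ethanol and other small molecules, had 21, 29 and 7 counts on NCD and 4, 14 and 3 on HFD, with a log2 fold change of -1.28 (SE 0.57). Of its 3′ stretches, 18.8% are also found among 109 other genes, and 16.9% in Fcho2. Bhmt, which makes methionine from homocysteine and betaine, had 10, 32 and 2 counts on NCD and 0, 3 and 0 on HFD, 12.8-fold higher on NCD with a counting interval of 4.09 to 64.3. Its 3′ end is shared in part (32.2% of the stretches), mostly with Gm5096. Without NCD replicates 1 and 2 the log2 fold change was 0.23 for Cyp2e1 and -0.70 for Bhmt. The call of Cyp2e1 was lost under DESeq2, under quantile normalization with limma, and without NCD replicate 1 (-1.14), NCD replicate 2 (-0.90), HFD replicate 1 (-1.08) or HFD replicate 3 (-0.97), and it held without HFD replicate 2 (-2.09). That of Bhmt was lost without NCD replicate 2, at -2.38, and its fitted value was -6.76 without HFD replicate 2.

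The other 7 intracellular members were not called. Tdo2, the tryptophan dioxygenase that opens the kynurenine pathway, had 15, 16 and 10 counts on NCD and 6, 8 and 5 on HFD, without overlap, and a log2 fold change of -0.91 (SE 0.64). Fabp1, the fatty acid carrier of the hepatocyte cytosol, had 5, 22 and 0 counts on NCD and 0, 6 and 2 on HFD. Cyp3a11, a P450 of drug metabolism, had 3, 12 and 1 counts on NCD and 5, 2 and 0 on HFD. HFD replicate 1 held more of it than NCD replicates 1 and 3. Arg1, the arginase of the urea cycle, had 3, 10 and 2 counts on NCD and 2, 7 and 4 on HFD, with a log2 fold change of -0.03 (SE 0.96). Cps1, the first enzyme of the urea cycle, had 0 to 8 counts per library, and Hpd and Tat, both of tyrosine breakdown, had 0 to 3.

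Secreted and intracellular members were highest in the same libraries, NCD replicates 2 and 1 and then HFD replicate 2. The secreted members summed to 79.7, 124 and 32.1 CPM on NCD and 29.0, 37.3 and 29.5 CPM on HFD. The intracellular members summed to 7.64, 14.5 and 2.32 CPM on NCD and 2.73, 4.47 and 2.33 CPM on HFD. The diet means stood in a ratio of 2.46 for the secreted and of 2.57 for the intracellular members. Without Rbp4, the intracellular share of the counts was 10.8% (8.52% to 13.6%, Wilson 95% interval), 11.6% (9.90% to 13.6%) and 11.1% (7.45% to 16.2%) on NCD. It was 15.1% (9.87% to 22.4%), 15.5% (11.6% to 20.3%) and 14.9% (9.52% to 22.6%) on HFD. The shares of the 3 HFD libraries were above those of the 3 NCD libraries, but the intervals overlapped, and with Rbp4 among the members the mean share was 8.65% on NCD and 8.88% on HFD.

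The make-up of the group differed between libraries. Carriers without Rbp4 took 46.0% and 45.4% of the counts of the 33 members in NCD replicates 1 and 2, 26.8% in NCD replicate 3 and 21.9% to 33.2% in the HFD libraries. Apolipoproteins took 14.1% and 14.4% in NCD replicates 1 and 2, 24.7% in NCD replicate 3 and 15.8% to 32.5% in the HFD libraries. NCD replicate 3 lay within the range of the HFD libraries in both shares, but not in all. Fibrinogen and clotting genes took 10.6% in it (7.04% to 15.7%) and 2.38% to 8.30% in the HFD libraries. Its interval overlapped those of HFD replicates 2 and 3. Gm2083, a carrier, took 0% in it and 7.94% to 9.65% in the HFD libraries. Alb took 18.7% in it, 19.0% and 21.4% in NCD replicates 1 and 2, and 11.1% to 18.9% in the HFD libraries.

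The Mup entries set NCD replicate 3 apart from the others. All 21 Mup entries, 18 of them chosen by name after the counts were seen, summed to 369, 696 and 3 counts on NCD and 68, 155 and 45 on HFD. For each count of Alb there were 3.39 and 2.80 Mup counts in NCD replicates 1 and 2, 4.86, 3.10 and 3.46 in the HFD libraries, and 0.081 (exact 95% interval 0.016 to 0.256) in NCD replicate 3. The lowest interval of the other 5 libraries began at 1.84. Since 1 read may have been counted in several Mup entries, these intervals are too narrow. Serpina3k, in comparison, had 22.9, 27.3 and 24.3 counts per 100 Alb counts on NCD and 14.3, 26.0 and 30.8 on HFD, with intervals that all overlapped. Gc had 26.6 and 13.7 per 100 in NCD replicates 1 and 2, 0 in NCD replicate 3 (interval up to 10.5) and 0, 2 and 7.69 in the HFD libraries. The interval of NCD replicate 3 overlapped those of NCD replicate 2 and of the HFD libraries, so that Gc, unlike the Mup entries, did not set NCD replicate 3 apart.

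**Figure D4:**
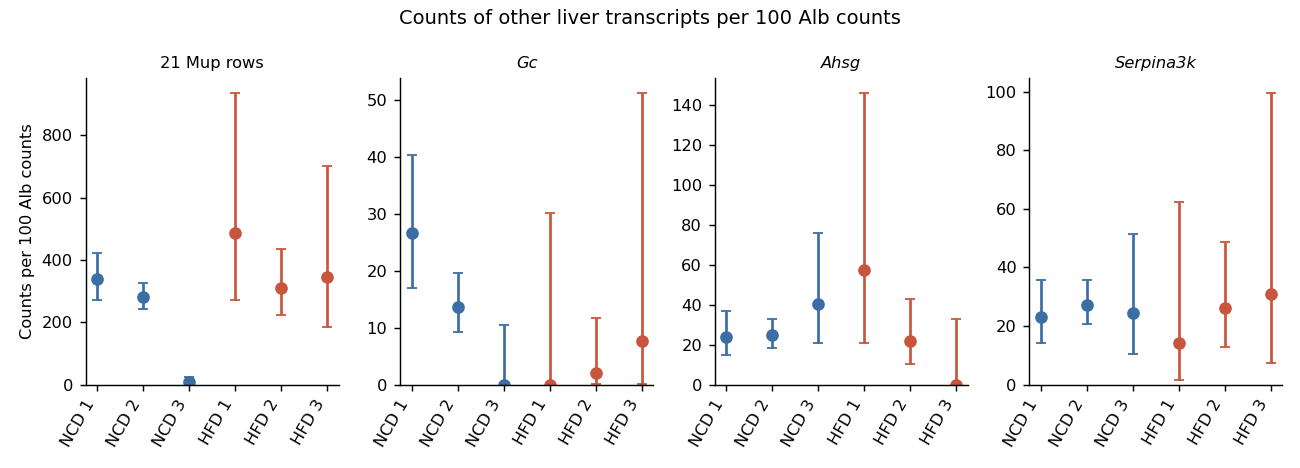
Counts of the 21 Mup entries, Gc, Ahsg and Serpina3k per 100 counts of Alb in each library, with exact 95% binomial intervals. The Mup entries had 8.11 counts per 100 Alb counts in NCD replicate 3 and 279.5 to 486 in the other libraries, while Serpina3k stayed between 14.3 and 30.8.

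A further 76 liver genes, listed from textbook knowledge with the earlier results known, had the same order in part. Of the 73 with a count, 14 were called lower on HFD and 0 higher by edgeR, against 1.29% and 0.813% of all genes. DESeq2 called 9 lower and 0 higher. NCD replicates 1 and 2 were above the other libraries for 24 of the 73, where 6.04% of all genes had this order. As the earlier results were known when the list was made, nothing is read from these shares either. Mup20, or darcin, had 49, 78 and 2 counts on NCD and 8, 24 and 5 on HFD, with a log2 fold change of -1.65 (SE 0.41). Mat1a, the methionine adenosyltransferase of the hepatocyte, had 15, 52 and 4 counts on NCD and 5, 8 and 3 on HFD, with a log2 fold change of -1.93 (SE 0.57). Cyp7a1, the rate-limiting enzyme of bile acid synthesis, had 8, 6 and 0 counts on NCD and none on HFD, at least 4.06-fold lower over the group. Others called lower included Itih4, C8a, Apoa5, Apof, Hrg, Saa1, Pzp, Slco1b2 and Rdh7. Of these, Apof (12, 10 and 7 counts against 1, 2 and 0), Hrg and Pzp had all HFD libraries below the NCD libraries. Over the 73 genes, the median log2 fold change came to -1.03. It was -0.76 with the 10 at 0 on a diet set to their bound, or to 0 where the other diet had at most 3 counts. Summed over all 76 genes, which Ttr dominates, the level was 1349.5 ± 123 CPM on NCD and 1319 ± 75.1 CPM on HFD and was highest in NCD replicate 3. Without Ttr the sums were 209, 261 and 199 CPM on NCD and 201, 208 and 158 CPM on HFD, a ratio of the means of 1.18 against 2.47 for the members. The number called lower was 9 without NCD replicate 1, 6 without NCD replicate 2, 9 without HFD replicate 1 and 1 without NCD replicates 1 and 2.

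Of the further liver genes with most counts, several of which brain cells are known to express, those named here were not called. Ttr, Agt, Vtn and Itih3, among the secreted genes with most counts, had log2 fold changes between -0.29 and 0.06, and the intracellular genes with most counts, Gls2, Aldh1l1, Fah, Sds and Asl, between -0.25 and 0.49. Ttr, for transthyretin, had 8164 to 11936 counts per library on NCD and 7364 to 10959 on HFD. Of 10 plasma proteins that brain cells make, among them Ptgds, Apoe, Cst3, Clu and Timp2, 0 were called in either direction by edgeR at an unadjusted p, and they summed to 7650 to 8284 CPM on NCD and 7727 to 8542 CPM on HFD.

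Hnf4a, a defining factor of hepatocytes, had 6 counts in NCD replicate 2 and none elsewhere. Of 14 liver regulators, 1 was called lower, Foxa2, with 12, 14 and 17 counts on NCD and 4, 10 and 0 on HFD, and it was highest in NCD replicate 3, where the members were low. Prox1, Cebpa and Creb3l3, among those with the most counts, had log2 fold changes between -0.27 and -0.08 and were not called. The list summed to 17.0 to 19.0 CPM on NCD and 12.8 to 15.3 CPM on HFD.

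**Figure D5:**
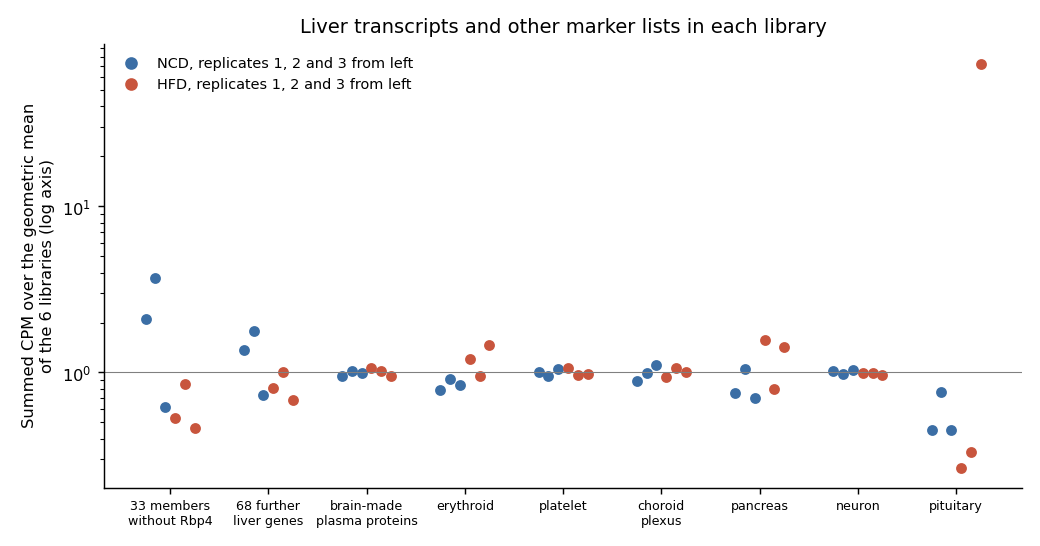
Summed CPM of the 33 members without Rbp4, of the 68 further liver genes with under 500 counts in all, and of other marker lists in each library over the geometric mean of the 6 libraries, on a log axis, with NCD in blue and HFD in red. The limit of 500 uses these same counts and leaves out the genes with most counts, Ttr among them. The NCD mean over the HFD mean was 1.55 for the 68 genes and 1.02 for all 76. The 2 liver sets plotted are highest in NCD replicates 1 and 2 (71.2 and 92.3 CPM for the 68 genes, against at most 52.2 CPM), the pituitary list in HFD replicate 3, and the neuron, platelet and choroid plexus lists lie near 1 in all libraries.

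Of the marker lists of other tissues and cells, the adipose list was highest in NCD replicates 1 and 2, with 3.94 and 3.88 CPM against at most 3.84 CPM elsewhere, and the other lists had another order. The pancreas list, with 12 of 15 genes at 0 in all libraries (Prss1, Prss2, Ctrb1, Cela2a, Cela3b, Cpa1, Cel, Reg1, Amy2b, Clps, Try4 and Try5), summed to 2.32 to 3.45 CPM on NCD and 2.62 to 5.17 CPM on HFD. The pituitary list, with Ghrhr and Gnrhr of 10 genes at 0, summed to 8.003 to 13.6 CPM on NCD, 4.74 and 5.89 CPM in HFD replicates 1 and 2 and 1275 CPM in HFD replicate 3, where the members were low. Adipose genes (8, none at 0) summed to 2.32 to 3.94 CPM on NCD and 1.87 to 3.84 CPM on HFD, with Lep and Car3 called lower. Lung genes (Sftpa1 of 5 at 0) summed to 1.08 to 3.05 CPM on NCD and 0.436 to 2.20 CPM on HFD, and Sftpb and Scgb1a1 had counts only in NCD replicate 3. Intestine genes (Alpi of 10 at 0) summed to 3.20 to 6.36 CPM on NCD and 4.94 to 6.32 CPM on HFD. Kidney genes (Umod, Aqp2 and Miox of 10 at 0) summed to 10.3 to 11.3 CPM on NCD and 7.14 to 9.16 CPM on HFD, with Slc22a6 the highest. Skeletal muscle genes (8, none at 0) summed to 89.8 to 116 CPM on NCD and 97.9 to 145 CPM on HFD. The platelet list, led by Gp1bb, summed to 546 to 603 CPM on NCD and 554 to 612 CPM on HFD, and the choroid plexus list, led by Ttr, to 1053 to 1320 and 1118 to 1261 CPM. Neurons summed to 6738 to 7062 CPM on NCD and 6642 to 6823 CPM on HFD, astrocytes to 4744 to 5014 and 4538 to 4914, oligodendrocytes to 7466 to 8615 and 8401 to 9066, and microglia to 342 to 356 and 351 to 374. The source of the liver transcripts in these libraries was not tested. With 2 of 3 NCD libraries high and the third level with HFD, an effect of diet and a difference between single libraries cannot be told apart.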

How the data were processed

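RNA from forebrain hemispheres was sequenced as QuantSeq 3′ libraries, 3 per diet. The authors deposited counts, whole numbers of reads per gene, one table per library, with no normalization; per the labels the reads were aligned to mm10 with Bowtie2 and counted with bedtools. The study's methods count unique and multiple alignments, so reads of near-identical genes can be shared or repeated. The annotation and the use of strand are not given in the sources used here. No entry was without a gene name, and 79 entries shared a symbol with another and were kept apart.

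Samples were grouped by the diet in their titles. The main comparison was edgeR 4.0.16 (glmQLFit and glmQLFTest, R 4.3.3) on all 18936 genes with a count, with TMM factors between 0.958 and 1.03 taken from the 13771 genes past filterByExpr (minimum count 10, minimum total 15). The script recovered known changes on simulated counts, planted in well-counted genes with the same spread for every gene and scored at an adjusted p. Most members have fewer counts and were called at an unadjusted p, so the simulation does not bear on their calls. P-values and SEs come from a fit that pools the spread between samples in part over genes. For a gene whose own replicates differ widely they can be too small. An example is Gm2083, with 68, 137 and 0 counts on NCD and an SE of 0.36. The alternatives were DESeq2 1.42.0, quantile normalization of log2(CPM + 1) with limma 3.58.1, other scalings and filters, a block on the replicate number, and leaving out each library in turn. Ratios, shares and intervals were computed with scipy 1.17.1 from counts. Positions and 3′ ends were read from a GENCODE annotation of GRCm38, which has the coordinates of mm10, for 33 of the 34 members (not Gm2083), and promoters from RefSeq.

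The members and lists were chosen with earlier results of these data known. Every member is named, those with at least 20 counts in all with each library's count and the others by range. Of the further liver genes, regulators and brain-made plasma proteins, the 5 with most counts per list and every gene called are named, and of other lists the called genes, those at 0 and leading genes. A few genes under this rule are not reported here.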

Additional observations from a re-analysis of the deposited data

How the results depend on the processing

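The direction of the members called was kept under all scalings tried with the 6 libraries. The ratio of the summed level between the diets was computed again under library size alone and not under the other scalings. Its log2 value was then -1.34, against -1.31 in the main comparison. Under library size alone, upper-quartile scaling, DESeq2 size factors, and with genes over 2% of the counts left out, 17 members were called lower in each. Over all genes, 244 were called lower and 154 higher. DESeq2 called 103 and 75, quantile normalization with limma 130 and 94, filterByExpr 103 and 72, and a minimum of 10 counts in every library 72 and 61. The counts ranged from 193 to 251 lower and 103 to 205 higher with 1 library left out, and were 390 and 475 without NCD replicates 1 and 2, an alternative chosen after seeing the data, in which the lone NCD library is assumed to vary like the HFD libraries.

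Quantile normalization with limma called 10 of the 34 members lower, and the cause of the lower number was not tested. FilterByExpr called 9 of 11 and the minimum of 10 counts 2 of 4, since these filters left fewer members to test. Their median log2 fold change was -0.57 under quantile normalization (-0.76 secreted, -0.25 intracellular), where 1 CPM is added to every value, and -0.62 at the minimum of 10 counts, where the 4 members left are secreted. With 1 library left out, 7 to 21 members were called lower and 0 higher, with medians of -2.27 to -0.82 (-2.43 to -1.14 secreted, -1.69 to -0.14 intracellular). Without NCD replicates 1 and 2, 0 were called lower and 1 higher, with medians of 0.095 (-0.087 secreted, 1.36 intracellular). The values of 7 called members then changed sign, to 2.72 for Gc, 1.91 for Ambp, 1.19 for Mup3, 6.93 for Gm2083, 0.52 for Apoa2, 0.42 for Hpx and 0.23 for Cyp2e1. The log2 ratio of the summed CPM, -1.31, ranged from -1.69 to -0.79 with 1 library left out (-1.68 to -0.81 secreted, -1.80 to -0.65 intracellular) and was 0.028 without NCD replicates 1 and 2 (-0.0079 secreted, 0.46 intracellular). The intracellular share differed by 0.228 percentage points between the diets, by -0.732 to 1.14 with 1 library left out, by 3.98 without Rbp4 and by 2.15 without NCD replicates 1 and 2.

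Of the further liver genes, 14 were called lower in the 6 libraries, 9 by DESeq2, 7 by quantile normalization, 3 past filterByExpr, and 0 at the minimum of 10 counts. With 1 library left out it was 6 to 19 lower and 0 to 1 higher, and 1 lower and 2 higher without NCD replicates 1 and 2. The median log2 fold change, -1.03, was -0.18 under quantile normalization, -0.17 past filterByExpr, 0.051 at the minimum of 10 counts, -1.23 to -0.41 with 1 library left out and 0.77 without NCD replicates 1 and 2.

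The labels do not say whether the replicate numbers pair the samples. Deviations of libraries with the same number had correlations of -0.03, 0.06 and -0.06, against -0.07 to 0.09 for the other pairs. These values cannot show whether libraries with the same number were processed together. With the replicate block, 165 genes were called lower and 87 higher, 17 members lower (median -1.58) and 9 further liver genes lower. Low counts limit the description, since 6 of the 34 members had under 20 counts in all, and their fitted fold changes rest on few reads.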
